A study of Caenorhabditis elegans with 2 samples.

Results

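The peaks described here are the nuclear rows of a larger deposited list of EGRH-3 peaks that overlapped no row of a shorter, conservative list by as much as 1 bp. Of the 3254 nuclear rows of the larger list, 1152 were selected on this rule and the other 2102 overlapped a conservative peak. They were set beside the 2194 nuclear conservative peaks. EGRH-3 is a zinc finger protein of the early growth response (EGR) family of the nematode Caenorhabditis elegans. Chromatin immunoprecipitation and sequencing was done with an antibody against GFP on strain RW12196, in which CRISPR had put a TY1, EGFP and 3xFLAG tag on egrh-3 at its own place on chromosome IV. The worms were whole young adults of 65 h, synchronised by bleaching and starving the first larval stage, and they formed 1 group of 2 biological replicates. There was no second condition, the line rests on 1 tagged allele, and all tissues of the worm were mixed.

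EGR proteins carry a row of C2H2 zinc fingers that read a GC-rich site with the core GTGGGCG, and they recruit NAB cofactors to the genes they bind. In C. elegans the related protein LIN-29 and the NAB protein MAB-10 act in the epidermis at the passage from larva to adult. A peak caller ranks regions by enrichment, and the irreproducible discovery rate (IDR) then estimates what share of the regions down to a given rank fails to recur between paired lists. A peak can therefore pass in one pairing of the data and miss the threshold in another, and the peaks described here are of that kind. Each was kept in the larger list at an IDR of 0.01 or less. How the larger list was paired is not given in the sources used here. The conservative list came from a ranked list whose paired intervals matched the regions of replicates 1 and 2.

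The sequences of 8 strong peaks show what kind of DNA lay under these summits. Each is the plus strand of the WBcel235 (ce11) RefSeq assembly over the summit base and 50 bases to each side of it, and capitals mark GTGGGCG or GTGGGTG on either strand. The first 4 are among the strongest peaks with a motif, and the last 4 among the strongest without one, all clear of annotated untranslated regions.
ZK1073.2 intron, chrX:16117764-16117864: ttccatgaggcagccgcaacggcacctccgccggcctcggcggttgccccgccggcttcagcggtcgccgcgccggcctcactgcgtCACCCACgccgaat
E03H12.5 coding exon, chrIV:4977445-4977545: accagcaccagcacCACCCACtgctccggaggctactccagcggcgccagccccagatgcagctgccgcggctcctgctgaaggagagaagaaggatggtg
Intergenic, nearest gene F22H10.1, chrX:16696996-16697096: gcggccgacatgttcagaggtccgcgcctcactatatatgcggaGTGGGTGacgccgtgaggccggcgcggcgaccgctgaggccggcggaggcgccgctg
Intron of pqn-83 and Y39E4B.13, chrIII:13091289-13091389: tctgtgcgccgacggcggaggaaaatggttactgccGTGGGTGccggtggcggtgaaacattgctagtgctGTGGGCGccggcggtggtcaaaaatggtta
Noncoding exon, nearest coding gene dsl-5, chrIV:11616699-11616799: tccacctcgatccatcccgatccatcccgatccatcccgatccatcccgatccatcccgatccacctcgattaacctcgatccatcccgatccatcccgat
Intergenic, nearest gene col-88, chrIII:42854-42954: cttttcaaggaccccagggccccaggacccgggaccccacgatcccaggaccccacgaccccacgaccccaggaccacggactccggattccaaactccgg
srw-42 intron, chrV:16693128-16693228: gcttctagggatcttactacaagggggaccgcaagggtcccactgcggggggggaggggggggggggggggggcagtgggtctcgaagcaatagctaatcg
lst-2 promoter, chrX:4383651-4383751: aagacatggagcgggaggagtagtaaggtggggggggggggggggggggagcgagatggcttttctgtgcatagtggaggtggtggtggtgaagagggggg

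The 4 windows with a motif had a GC content of 60.4% to 74.3%, and 3 of their summits were in the list of replicate 1 alone. The exception was E03H12.5, whose summit was in the list of replicate 2 alone. The windows near dsl-5, at srw-42 and at lst-2 are low in complexity: a short unit repeated through the first, and long runs of G in the latter windows. A run of 8 or more G or C was present within 50 bp of 62 of the 1152 summits (5.38%, 95% interval 4.15 to 6.85). The share was 3.97% of conservative summits (3.19 to 4.87) and 0.244% of 992797 windows of the same length tiled over the nuclear genome. Among the 20 strongest of the 1152 peaks, 5 had such a run. These runs were looked for after the sequences had been seen, so the shares are a description.

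The members were mostly weak peaks of their list, and a few were strong. Signal, the strength value the authors deposited for every peak, ran from 10.1 to 357 with a median of 80.7 (mean 90.7 ± 38.4, SD over 1152 peaks). In the 2102 rows that overlapped a conservative peak it ran from 9.90 to 5852 with a median of 144. When the larger list was cut by signal into 10 bins of like size, 5 of the 326 rows in the strongest bin were members (1.53%), against 202 rows of bin 8 (62.2%), 296 of bin 9 (91.1%) and 238 of bin 10, the weakest (73.0%). The strongest member ranked 301 of 3254. Signal and IDR fed the rule that chose the peaks, so these values are given with no test.

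**Figure D1:**
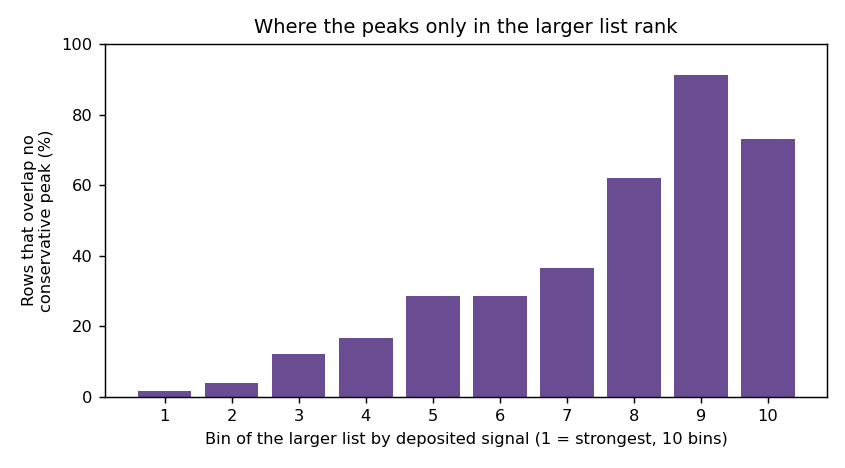
Share of rows of the larger list that overlap no conservative peak (vertical axis, percent), in 10 bins of the list in order of deposited signal (horizontal axis, 1 = strongest). The share is 1.53% in bin 1 and 91.1% in bin 9.

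In the larger list 652 of the 1152 peaks (56.6%) carried the top score of 1000, and the median IDR was 0.00326. In the ranked list behind the conservative peaks, 1085 of them stood at the same coordinates with a median IDR of 0.0323, and 652 peaks (56.6% of 1152) had an IDR under 0.05. Just beyond the threshold of 0.01 lay a summit in a noncoding exon 1013 bp from tra-1 and one in a coding exon of dkf-2, both with an IDR that rounds to 0.01. At the far end the IDR reached 0.711. Just inside the larger list's own threshold stood F31D4.2, Y24D9A.7 and dod-3, with IDR values of 0.00998, 0.00999 and 0.00996. The 3 rows with the smallest overlap, of 4, 7 and 9 bp with a conservative peak, lay just outside the rule and had signals of 87.5, 140 and 170. The median distance from a member to the nearest conservative peak was 12358 bp, and 111 members lay within 1000 bp of one. The nearest was in an intron of idpp-3, at a distance of 1 bp.

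The replicates' own lists held these peaks unequally. The thresholded list of replicate 1 alone held 658 of the 1152 (57.1%, 95% interval 54.2 to 60), that of replicate 2 alone held 107 (9.29%, 7.67 to 11.1), both held 13 (1.13%) and neither held 374 (32.5%). Of the conservative peaks, the list of replicate 1 alone held 703 (32.0%), that of replicate 2 alone 157 (7.16%), both 51.9% and neither 8.89%, so replicate 1 was the more frequent single holder in both sets. The own list of replicate 1 was the longer of the pair, with 2850 nuclear rows against 1439. In the ranked lists of the replicates, which have no threshold, a region overlapped 1123 of the members in replicate 1 and 1012 in replicate 2. The files give no read counts, so the depth behind either replicate is unknown, and its part in this imbalance was not tested.

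The deposited signals at the summits were also set side by side, though their scales may differ between replicates. A ranked region covered the summit in both replicates for 945 members, and replicate 1 was higher at 698 of them (73.9%, 95% interval 70.9 to 76.6) and replicate 2 at 247. Among conservative peaks replicate 1 was higher at 1644 of 2070 (79.4%, 77.6 to 81.1), so a higher value in replicate 1 was not a trait of the members alone. The median signal was 56.6 in replicate 1 (1113 members with a region) and 27.5 in replicate 2 (981 members). The signals of different lists need not share a scale, so a ratio is read only against other ratios here: its median was 2.1 over the members, 3.63 for those in the list of replicate 1 alone, 0.522 for those in the list of replicate 2 alone and 1.09 for those in neither. Among conservative peaks it was 1.64 over all, and 2.15, 0.775 and 1.11 in the same order. Replicate signal goes into which list holds a peak, so the split by holder is a description only. Across the 945 members the ranks of the replicate signals had a Spearman rho of −0.71, against 0.46 across 2070 conservative peaks. Both values are across peaks of the same libraries. Both lists were cut by IDR, and members were also chosen as absent from the conservative list. The pairing behind the larger list is not known, and the part of this selection in rho was not tested.

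**Figure D2:**
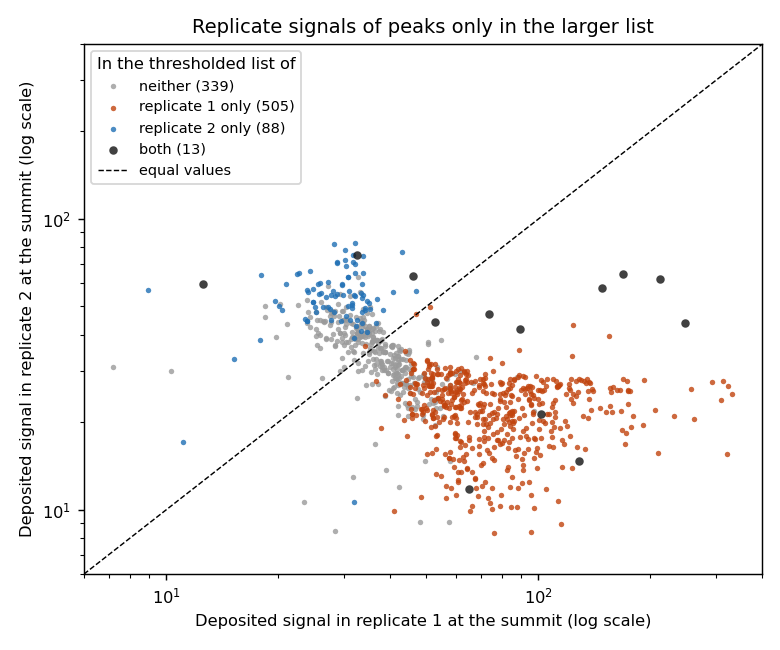
Deposited signal in replicate 1 (horizontal, log scale) and replicate 2 (vertical, log scale) at the 945 summits covered by a ranked region in both, coloured by which replicate's thresholded list held the peak. Peaks of replicate 1 alone lie below the line of equal values for the most part, peaks of replicate 2 alone above it, and peaks in neither list around it.

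The members held by 1 replicate's list differed from those held by the other's in base composition. Over 50 bp to each side of the summit, GC content was 58.9% ± 7.9 (SD) over the 658 peaks of replicate 1 alone, 47.2% ± 7.6 over the 107 of replicate 2 alone and 49.4% ± 8.9 over the 374 of neither. A GC content of 55% or more was found at 523 summits of replicate 1 alone (79.5%, 95% interval 76.2 to 82.5), 17 of replicate 2 alone (15.9%, 9.54 to 24.2) and 117 of neither (31.3%, 26.6 to 36.3). Among tiled genome windows the share was 1.61%. All 3 groups were thus far above the genome, and the intervals of the first did not overlap those of the others.

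Pooled over holders, members and conservative peaks had like GC content: 663 members (57.6%) and 1318 conservative peaks (60.1%) were at 55% or more, a difference of −2.52 points (two-sided Fisher's exact test, p = 0.160). The lists held the sets in unlike shares, so peaks with the same holder were also compared, an alternative chosen after seeing the data. Among peaks in the list of replicate 1 alone, members were GC-rich more often than conservative peaks (79.5% against 69.7%, exact p = 3.94e-05). Among peaks in the list of replicate 2 alone they were GC-rich less often (15.9% against 28.0%, exact p = 0.0256), and among peaks in neither list the shares were 31.3% and 33.3% (exact p = 0.637). Set against only the weaker conservative peaks, the 50% with the lower signals in the larger list, members were GC-rich more often, by 10.4 points (exact p = 1.11e-06). At a threshold of 50% the pooled difference was −4.42 points (exact p = 0.00461). Tests here take peaks as units, and peaks of the same 2 libraries are not replicates.

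**Figure D3:**
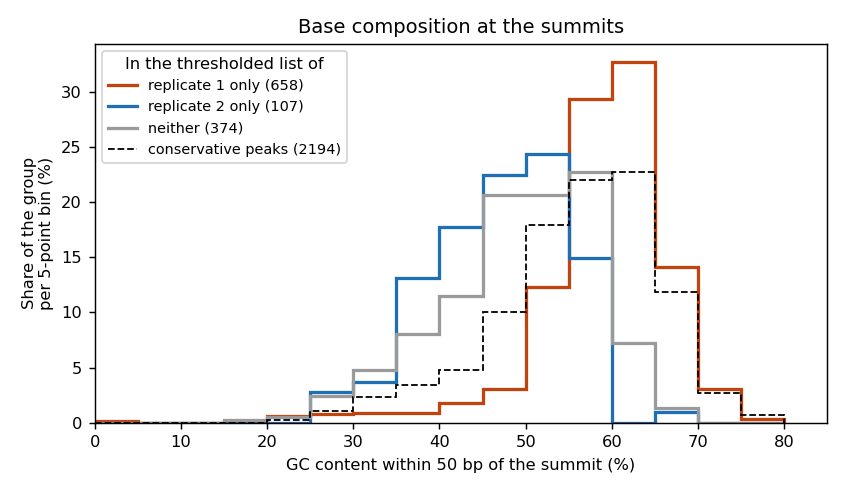
GC content within 50 bp of the summit (horizontal, percent) as the share of each group in bins of 5 points (vertical, percent) for members in the thresholded list of replicate 1 alone, of replicate 2 alone or of neither, with the conservative peaks as a dashed line. The group means are 58.9%, 47.2% and 49.4%.

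Members lay in promoters less often than conservative peaks and in introns more often. A summit was called promoter when it fell between 1000 bp before and 200 bp past the 5' end of any protein-coding transcript. This held for 371 members (32.2%, 95% interval 29.5 to 35.0) and 845 conservative peaks (38.5%, 36.5 to 40.6; two-sided Fisher's exact test adjusted over 7 classes by Benjamini-Hochberg, p = 0.00114). Introns held 237 members (20.6%, 18.3 to 23.0) and 328 conservative peaks (14.9%, 13.5 to 16.5; adjusted exact p = 3.12e-04). Introns make up 27.2% of nuclear bases and promoters 26.1%, so members stood nearer the genome's makeup in both classes. Coding exons held 275 members (23.9%), intergenic DNA 204 (17.7%), exons of noncoding genes 48 (4.17%), 3' UTRs 11 (0.955%) and 5' UTRs 6 (0.521%). None of these 5 shares differed from that of the conservative peaks past an adjusted p of 0.05, and the lowest of their adjusted p values was 0.363.

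Among peaks of replicate 1 alone, of replicate 2 alone and of neither list, the promoter difference kept its sign. It was −3.21 points in the list of replicate 1 alone (27.7% against 30.9%, adjusted exact p = 0.492), −10.6 points in that of replicate 2 alone (46.7% against 57.3%, adjusted exact p = 0.180) and −13.2 points in neither list (35.6% against 48.7%, adjusted exact p = 0.0203). In both lists the sign was the opposite, with 6 of 13 members (46.2%) against 38.9% of conservative peaks. With a window of 500 bp upstream the pooled promoter difference was −2.81 points (adjusted exact p = 0.155), and at an IDR under 0.005 it was −4.87 points (adjusted exact p = 0.0734). The intron difference was 4.79 points in the list of replicate 1 alone, 8.71 points in that of replicate 2 alone and 7.57 points in neither, and none of these passed the test on its own (lowest adjusted exact p = 0.117).

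**Figure D4:**
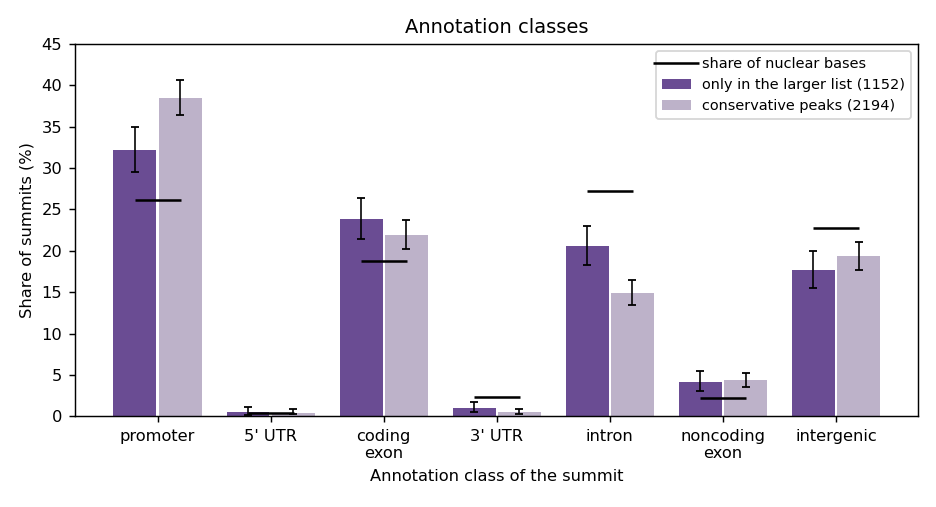
Share of summits (vertical, percent) in 7 annotation classes (horizontal) for the 1152 members (dark bars) and the 2194 conservative peaks (light bars), with exact 95% intervals and the class's share of nuclear bases as a black line. Promoters hold 32.2% and 38.5%, and introns 20.6% and 14.9%.

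Coding exons split by replicate in both sets. They held 207 of the 658 peaks of replicate 1 alone (31.5%, 95% interval 27.9 to 35.2), 6 of the 107 of replicate 2 alone (5.61%, 2.09 to 11.8) and 61 of the 374 of neither (16.3%, 12.7 to 20.5). Of the conservative peaks they held 29.6%, 1.91% and 17.4% in the same order. Promoters ran the other way in both sets. Between members and conservative peaks with the same holder the coding-exon share differed by 1.87, 3.70 and −1.13 points, and none of these passed the test (lowest adjusted exact p = 0.230). Against the weaker conservative peaks the pooled difference was 7.33 points (adjusted exact p = 7.70e-05).

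Members also differed in how close they lay to genes of small RNAs. A tRNA, snRNA, snoRNA, rRNA or miRNA gene lay within 200 bp of 81 members (7.03%, 95% interval 5.62 to 8.66) and 214 conservative peaks (9.75%, 8.54 to 11.1; two-sided Fisher's exact test, p = 0.00845). Transfer RNA genes, which RNA polymerase III transcribes, were near 65 members (5.64%) and 120 conservative peaks (5.47%). Genes of snoRNAs, which guide the modification of other RNAs, were near 10 members (0.868%) and 63 conservative peaks (2.87%), and snRNA genes near 4 and 23. There were 3 members near a miRNA gene and 0 near an rRNA gene.

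Of the 107 members of replicate 2 alone, 34 were near such a gene (31.8%, 95% interval 23.1 to 41.5), and 29 of these were near a tRNA gene. The share was 24.2% (17.7 to 31.7) of conservative peaks of replicate 2 alone (exact p = 0.206). Of the 658 of replicate 1 alone, 9 were (1.37%, 0.627 to 2.58), 5 of them near a tRNA gene, against 4.27% (2.90 to 6.04) of conservative peaks (exact p = 0.00166). Of the 374 in neither list, 36 were (9.63%), 30 of them near a tRNA gene, against 16.4% of conservative peaks (exact p = 0.0207). The rise from peaks of replicate 1 alone to those of replicate 2 alone was thus present in both sets. The pooled difference was −2.72 points. With an IDR under 0.005 it was −2.01 points (exact p = 0.106).

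Position along the chromosomes differed as well. The central part of each autosome, from 33.3% to 66.7% of its length, where C. elegans genes of general function are dense and recombination is low, held 179 of 963 autosomal members (18.6%, 95% interval 16.2 to 21.2) and 510 of 1861 conservative peaks (27.4%, 25.4 to 29.5; two-sided Fisher's exact test, p = 1.68e-07). That part is 33.3% of autosomal bases. By holder, 74 of 558 members of replicate 1 alone lay in the centre (13.3%, against 24.7% of conservative peaks, exact p = 7.17e-07), 68 of 313 of neither (21.7% against 35.0%, exact p = 0.00214) and 36 of 80 of replicate 2 alone (45% against 36.6%, exact p = 0.249). The chromosomes themselves held 179 to 203 members each, and no chromosome's share passed the test against that of the conservative peaks (lowest adjusted exact p = 0.550 over 6 chromosomes).

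**Figure D5:**
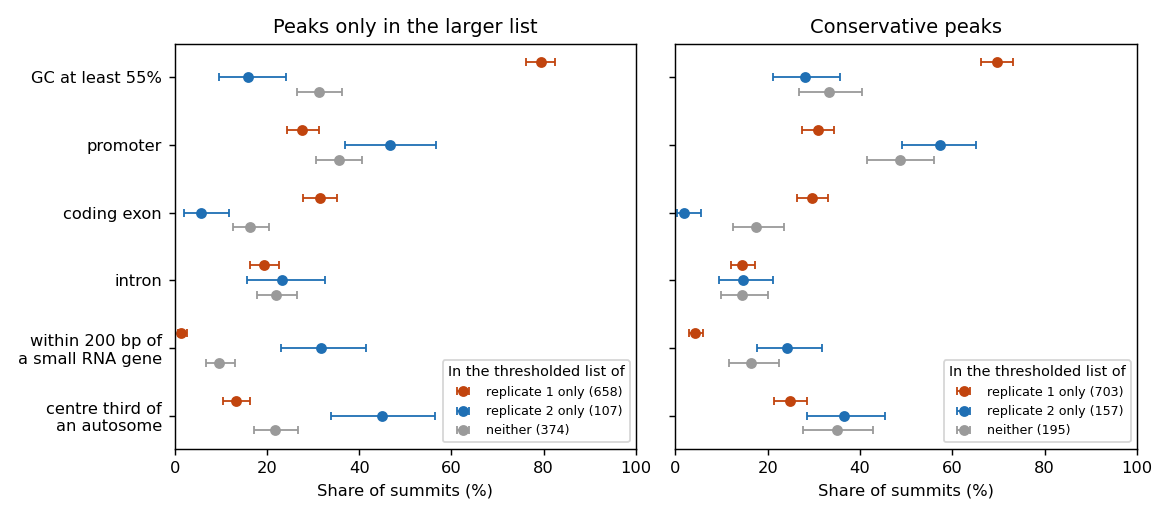
Share of summits (horizontal, percent, exact 95% intervals) with each of 6 features for members (left) and conservative peaks (right) found in the thresholded list of replicate 1 alone, replicate 2 alone or neither. The share in the chromosome centre counts autosomal summits only. Among members the GC-rich share is 79.5% in replicate 1 alone and 15.9% in replicate 2 alone, and the share near a small RNA gene 1.37% and 31.8%.

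The EGR motif was found at few members. GTGGGCG or GTGGGTG stood on either strand within 50 bp of 45 of the 1152 summits (3.91%, 95% interval 2.86 to 5.19) and of 71 of the 2194 conservative summits (3.24%, 2.54 to 4.06; two-sided Fisher's exact test, p = 0.321). It was present in 1.11% of tiled genome windows. Within members the motif was at the summit more often than beside it: 44 members had it at the summit alone and 11 in a window centred 300 bp downstream alone (two-sided exact McNemar test, p = 8.70e-06). The window 300 bp upstream gave 44 and 9 (exact p = 1.22e-06). With GTGGGCG alone there were 23 summits and 9 flanking windows (exact p = 0.0201). Conservative peaks had a summit excess too, with 71 at the summit alone and 47 downstream alone (exact McNemar p = 0.0338). Upstream the counts were 69 and 28 (exact p = 3.80e-05), and with GTGGGCG alone 42 and 28 (exact p = 0.120).

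The members' motif share was lowest below 45% GC and highest in the top band of GC content, with no steady rise between. In windows of 65% GC or more, 16 of 122 members held the motif (13.1%), against 19 of 336 conservative peaks (5.65%) and 7.52% of genome windows of that composition. In windows of 60% to 65% GC it was in 8 of 243 members (3.29%) and 6.82% of genome windows. In windows of 55% to 60% it was in 10 of 298 members (3.36%) and 4.54% of genome windows. In windows of 50% to 55% it was in 5 of 185 members (2.70%) and 3.22% of genome windows. At 45% to 50% it was in 5 of 125 members (4%) and 2.49% of genome windows. Below 45% GC, 1 of 179 members had it (0.559%), against 0.812% of genome windows. Conservative peaks held it at 4.01%, 3.73%, 2.03%, 2.73% and 0% in these lower bands, in the same order. The members' share was thus above that of genome windows of like GC content in the top band and at 45% to 50%, and below it in the other bands. These bands are a description, and the part of GC content in the excess at summits was not tested. The 45 members with a motif had a median signal of 94.9 and a GC content of 60.1% ± 8.1 (SD).

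Among words of 6 bases, runs rich in A were fewer at summits and words of C and G more frequent. Of all such words, either strand counted together, 565 (27.2%) were at more member summits than windows 300 bp downstream and 523 (25.1%) at fewer (exact McNemar test, adjusted p under 0.05). The 5 lowest p values all belonged to words depleted at summits. AAAAAT was within 50 bp of 164 summits (14.2%) and in 533 flanking windows (46.3%, adjusted exact p = 3.48e-67), and AAAATT followed, at 11.8% of summits and in 42.2% of flanks. AAAAAA was at 12.2% of summits and in 40.5% of flanks, TAAAAA at 6.16% of summits and in 28.5% of flanks, and CAAAAA at 10.8% of summits and in 34.4% of flanks. Among words in excess at summits, CGCCGC had the lowest p, at 202 summits (17.5%) against 30 flanking windows (2.60%, adjusted exact p = 1.57e-32), and it is named here after its values were seen. CGCCGC was at 17.3% of conservative summits and 3.46% of their flanks. Of the 655 words in excess at conservative summits and the 565 at members, 491 were shared. These tests hold composition and motif together, so a word in excess is no binding site by itself.

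Sequence that occurs more than once in the genome was about as common under members as under conservative peaks. At least 50% of the 31-base words of the window recurred in the genome at 193 members (16.8%) and 405 conservative peaks (18.5%, two-sided Fisher's exact test, p = 0.235). Among peaks with the same holder the lowest exact p of this difference was 0.278. Among all peaks in the list of replicate 1, held by it alone or by both, the shares were 14.8% and 18.5% (exact p = 0.0325).

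The promoter members served 422 of the 19973 nuclear protein-coding genes (2.11%), against 970 genes (4.86%) for the conservative peaks. Such a gene is called bound for short. Untagged worms were not analysed here, so a summit was not told apart from background enrichment. The sets shared 28 genes, which are 6.64% of the member genes and 2.89% of the conservative genes. Of the 371 promoter summits, 73 served 2 or more genes, and 25 genes had 2 or more member summits.

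The strongest promoter members had a high signal in replicate 1 and a low one, or no ranked region at str-198, in replicate 2. W04A8.9 led with a signal of 341 (chromosome I, 13851912 to 13852177, summit 340 bp upstream), with 323 in replicate 1 and 26.7 in replicate 2. At lst-2, which dampens EGF receptor signalling in the vulva, the summit was 335 bp upstream (chromosome X, 4383554 to 4383882) with a signal of 336, and 322 in replicate 1 and 15.5 in replicate 2. At F43B10.1 the summit was 90 bp past the 5' end, inside the coding exon, with 293 in replicate 1 and 27.6 in replicate 2. All 15 of the strongest promoter members were in the list of replicate 1 and none in that of replicate 2. Signal picked these 15, and signal and IDR fed the rule that chose the members. Their replicate values and holders are therefore a description of the selection, not a result about these genes. Their signals ran from 182 to 341 and their GC content from 56.4% to 72.3%, and none held the EGR motif.

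The other 12 of those 15 were at genes of varied function. At flcn-1, the worm folliculin, the summit lay 396 bp upstream on chromosome II (6943782 to 6944037) with a signal of 276, within 200 bp of the miRNA gene mir-8192. At ostb-1, a subunit of the enzyme that adds sugars to nascent proteins, it lay 608 bp upstream with a signal of 200. The summit upstream of daf-31, an N-terminal acetyltransferase, was also inside a coding exon of nucl-1, and that upstream of T12D8.10 inside a coding exon of drr-2. At flp-14, which encodes FMRFamide-like neuropeptides, the summit was 42 bp past the 5' end, in the coding exon, with a signal of 194. At cla-1, which encodes a large protein of the presynaptic active zone, it was 185 bp upstream with a signal of 185. The remaining ones were at C49A1.10, W08E12.8, the chemoreceptor gene str-198, appg-1, F47G6.3 and eat-18, an accessory protein of nicotinic receptors in the pharynx, with signals of 182 to 223. Of these, the summit upstream of str-198 was inside a coding exon of ZK285.2.

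Outside promoters the strongest member of all was in a noncoding exon on chromosome IV (11616637 to 11616870), 2614 bp from dsl-5, whose repeated unit is shown above; its signal was 357, with 331 in replicate 1 and 24.9 in replicate 2. The strongest intergenic member was 933 bp from col-88 on chromosome III (42791 to 43064), with 313 in replicate 1 and 27.8 in replicate 2. The strongest intron member was in srw-42, a chemoreceptor gene (chromosome V, 16693034 to 16693355), with 310 and 23.8. Deposited values at these summits were again far higher in replicate 1, on scales that may differ, and the summits were picked by signal. In a coding exon of sea-2, a zinc finger gene of the X chromosome counting and developmental timing pathways, a member with a signal of 288 was in both lists, with 247 in replicate 1 and 43.8 in replicate 2. It lay 296 bp from a conservative peak. A member in a coding exon of E03H12.5 had a signal of 258 and no ranked region of replicate 1 over its summit, with 89.7 in replicate 2.

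Other classes were weaker. The strongest 5' UTR member was in Y43F8B.1 (signal 203, with 168 in replicate 1 and 64.9 in replicate 2, in both lists), and a second member of the same gene lay in an intron with a signal of 284. The strongest 3' UTR member was in rgs-4, with a signal of 134. One of the 13 members in both replicates' lists was in an intron of tra-1, the GLI-type zinc finger that directs female development, with 148 in replicate 1 and 58.1 in replicate 2. These 13 were named after their values were seen. They include promoter members at cmk-1, a calmodulin-dependent kinase, with 52.9 and 44.2, and at vps-60, an endosomal sorting gene, with 12.5 and 59.9. Their IDR in the ranked list of paired replicates ran from 0.0125 to 0.533.

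The strongest members of replicate 2 alone, picked after their values were seen, had small RNA genes beside 3 of 5 summits. After E03H12.5, the strongest were 470 bp upstream of T02E1.2 beside the snoRNA gene T02E1.9 (87.6 in replicate 2), in an intron of F52C9.5 beside a tRNA gene (86.5), 275 bp upstream of pcrg-1 (80.3), and 133 bp from Y57G11B.5 beside a tRNA gene (73.2). No ranked region of replicate 1 covered any of these 5 summits. The strongest member near an snRNA gene was in an intron of glr-2, a glutamate receptor gene, beside sls-2.16, one of the genes of the spliced leader RNA that is joined to downstream messages of operons. It had 30.3 in replicate 1 and 69.0 in replicate 2. The next strongest were beside sls-2.9 near top-1 and beside sls-2.4 upstream of egg-5. The strongest tRNA-side member, in an intron of metl-18, was in the list of replicate 1 alone (114 and 26.8).

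The gene lists below were chosen with earlier results of these data known, so they get counts and no test, and each count is read against 2.11% of all genes for members and 4.86% for conservative peaks. Of the 5 EGR and NAB genes, 0 had a member in the promoter window and 3 had a conservative peak. One member lay 1071 bp upstream of egrh-1 (chromosome X, 14844832 to 14844931, signal 98.6, replicate 1 alone), which is beyond the promoter window, so it was classed as intergenic. One lay in an intron of lin-29 (chromosome II, 11927926 to 11928325) with a signal of 69.8, giving 40.9 in replicate 1 and 34.0 in replicate 2, in neither list. One lay past the 3' end of the tagged gene egrh-3 in a noncoding exon, with a signal of 78.3, also in neither list. None was within 5000 bp of egrh-2 or mab-10.

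Of 16 heterochronic genes, which time larval cell fates, members bound 3 (18.8%) and conservative peaks 8, with 2 in common. The 3 were kin-20, a casein kinase (102 in replicate 1 and no ranked region of replicate 2), sea-2 (64.1 and 30) and blmp-1, a zinc finger regulator (57.3 and 25.3), all in the list of replicate 1 alone. Further members lay in introns of lin-14 and lin-29 and in a coding exon of nhl-2. Members lay inside 5 of the 16 genes (31.2%, against 3.18% of all protein-coding genes) and conservative summits inside 8 (50%, against 4.67%).

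Cuticle collagens took their members inside the gene. Of 156 genes named col, members bound 6 promoters (3.85%) and conservative peaks 6. Member summits lay inside 25 col genes (16.03%, against 3.18% of all protein-coding genes) and in the coding exons of 22 (14.1% against 1.62%). Conservative summits lay inside 98 (62.8%, against 4.67% of all genes) and in the coding exons of 97 (62.2% against 2.56%). The strongest was in col-39 (chromosome II) with a signal of 208 and 192 in replicate 1, followed by col-14 with 180 and col-184 with 179. Of the 27 summits inside col genes, 23 were in the list of replicate 1 alone, 3 in neither list and 1, in col-54, in that of replicate 2 alone. The 21 collagens named for body shape had 0 promoter members and 7 coding-exon members in 6 genes: dpy-3, rol-6, bli-2, bli-6, dpy-7 and sqt-1, with signals of 24.7 to 183. Those genes were 28.6% of the list, against 1.62% of all genes. Conservative peaks had the same counts in this list, with 0 promoters and 7 coding-exon summits in 6 genes (28.6%, against 2.56%). The member summit in dpy-3 had 159 in replicate 1 and 26.4 in replicate 2, and that in rol-6 had 123 and 33.6. As background, collagen coding sequence is full of glycine and proline codons, which are rich in G and C. The windows of the 7 members in body shape collagens had 56.4% to 64.4% GC.

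No ribosomal protein gene had a promoter member from the list of replicate 1. Inside the genes 4 member summits lay in 4 genes (5.06%, against 3.18% of all protein-coding genes), and their holder is not given here. Of 79, members bound 10 (12.7%) and conservative peaks 22 (27.8%), with 1 in common. The strongest was rps-1 (31.8 in replicate 1 and 71.0 in replicate 2), then the shared promoter of rpl-24.1 and rps-10 (29.6 and 59.9) and rps-15 (26.9 and 54). Those were in the list of replicate 2 alone and the other 6 genes in neither list, so none of the 10 was in that of replicate 1. Of 72 translation factor and tRNA synthetase genes, members bound 7 (9.72%) and conservative peaks 7, with 0 in common. There eif-3.J (78.1 in replicate 1 and no ranked region of replicate 2), qars-1 (77.7 and 17.4) and eif-2alpha (62.1 and 24.0) were in the list of replicate 1 alone, and the other 4 in neither.

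Histones had 6 of 80 genes bound by members (7.50%) and 12 by conservative peaks. One summit served the divergent pair his-1 and his-2 (114 in replicate 1 and 27 in replicate 2), one served his-38 and his-40 (60.8 and 28.2), and hil-4 and his-63 followed. Of 9 genes of the CCR4-NOT deadenylase and unk-1, members bound ntl-11 and ntl-4, and conservative peaks 3 others. Of 36 body wall muscle genes members bound 3, the actin act-4 with 2 summits, the giant sarcomere protein gene unc-89 and the myosin light chain gene mlc-2. The act-4 summits split by replicate: one gave 81.2 in replicate 1 and 24.9 in replicate 2, the other 32.2 and 65.2.

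Other families had few or no promoter members by count, and their shares lay on both sides of that of all genes. The counts are given as a description. Heat shock and DnaJ chaperones had 0 of 52 genes bound by members and 12 by conservative peaks, the respiratory chain 1 of 40 (2.50%, ucr-2.1) and 10, and nuclear hormone receptors 2 of 274 (nhr-217 and nhr-236) and 13. Hedgehog-related and Patched-related genes had 0 of 85 and 4, GATA factors 0 of 12 and 2, Wnt pathway genes 0 of 24 and 2, and vitellogenins and sperm proteins 0 of 81 and 4. Members did lie inside some of these: in 2 places of egl-18, a GATA factor of the seam cells, in an intron of lin-17, a Frizzled receptor, and in 5 Hedgehog-related or Patched-related genes. The last were 5.88% of their list, against 3.18% of all protein-coding genes with a member inside. Conservative summits lay inside 16 Hedgehog-related or Patched-related genes (18.8%, against 4.67% of all genes). Of 86 homeobox genes members bound ttx-1, which specifies the thermosensory neuron. Of 34 bHLH genes they bound 2 (5.88%, the same share as for conservative peaks). These were hlh-30, the worm TFEB (98.6 in replicate 1), and sbp-1, the worm SREBP (43.9 and 34.6). Of the stress and insulin regulators hlh-30 was also the 1 bound of 25, and 2 more members lay inside it.

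Neuronal genes had small counts of promoter members as well, with shares near or above that of all genes. Members bound 3 of 144 neuropeptide and insulin genes (2.08%), flp-14, daf-28 and flp-23, against 1 for conservative peaks, and 2 of 34 synaptic genes (5.88%), cla-1 and unc-10, against 1. Counts this small are not a result about either list. The share was lower in large families of sensory, F-box and defence genes. Members bound 5 of 1241 chemoreceptor genes (0.403%) and 3 of 412 F-box, MATH and BTB genes. They also bound 3 of 356 immune effectors and 1 of 188 detoxification genes. Conservative peaks bound 13, 5, 5 and 1 genes of these lists in the same order, each share below their 4.86% of all genes. The low share was thus common to both sets. Inside chemoreceptor genes 13 members lay in 12 genes (0.967%, against 3.18% of all protein-coding genes). Each was in an intron, and 11 of the summits were in the list of replicate 1 alone. Conservative summits lay inside 8 chemoreceptor genes (0.645%, against 4.67% of all genes). The epidermal junction list had 0 of 26 genes bound by either set, and 5 members inside vab-10, hmr-1 and ajm-1. These 3 genes were 11.5% of the list, and conservative summits lay inside 1 gene of it (3.85%).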

How the data were processed

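Peak lists of a ChIP-seq experiment on 1 group of 2 biological replicates were analysed, all on ce11 per the labels. Not given in the sources used here: aligner, peak caller, and the pairing behind the larger list. The signal of each peak is the authors' deposited strength value, whose scaling is not stated. The authors' −log10 columns hold q-values and, for ranked lists only, the global IDR. The deposited score runs to 1000 and follows the IDR, with 830 at the threshold of 0.01, so the authors' IDR filter came before deposit. The files hold no read counts, so depth and its precision are unknown, and intervals cover counting error over peaks only. Data of the control library were not used here.

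The members and gene lists were chosen with earlier results of these data known. The 24 mitochondrial rows were left out. Each summit took 1 class from the Ensembl release 115 annotation of WBcel235, with promoters first, then UTRs and coding exons, then introns, exons of noncoding genes and intergenic DNA. Genomic sequence came from the RefSeq assembly. A replicate held a member when a row of its own thresholded list overlapped it by 1 bp, and its signal was that of the strongest ranked region over the summit. Members were compared with conservative peaks by two-sided Fisher's exact tests, and summits with flanks by exact McNemar tests, with Benjamini-Hochberg adjustment over 7 classes, 6 chromosomes or all words. The word test was tested on simulated data. Peaks are the units of these tests and are not replicates, so the p-values measure counting error within these 2 samples. Gene lists, signals, IDR values and replicate lists got no test. Named genes were the 15 strongest promoter members, the 3 strongest of every other class and small RNA kind, up to 3 of each gene list, and the EGR list in full. Genes given for members inside genes, in both lists or in that of replicate 2, and further list members, were chosen after their values were seen. Alternatives were a distance of 1000 bp from conservative peaks, other overlaps, the weaker conservative peaks, 1 summit per interval, midpoints, a stricter IDR, each replicate's list in turn, and other windows, motifs and word lengths. The soft-masked share and the comparison of peaks with the same holder were added after the data were seen. Python 3.11.15, numpy 2.4.6, pandas 2.3.3, scipy 1.17.1 and matplotlib 3.10.9 were used.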

Additional observations from a re-analysis of the deposited data

How the results depend on the processing

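Differences are in percentage points, members minus conservative peaks. Restricting both sets to 1 replicate's own list gave −7.81 to 5.54 for promoters, −12.6 to 6.89 for coding exons, 4.34 to 8.06 for introns, −12.7 to 12.5 for the autosome centre, −39.7 to 13.2 for GC-rich summits, −6.18 to 18.3 for small RNA genes and −3.70 to 3.33 for repeated sequence. In the list of replicate 2 the autosome centre gave 12.5, small RNA genes 18.3 and coding exons −12.6. Each was the reverse of the pooled sign and past the test over peaks. In the list of replicate 1 GC-rich summits gave 13.2, likewise reversed and past the test. There coding exons gave 6.89 (adjusted exact p = 0.00198) and repeated sequence −3.70 (exact p = 0.0325), both with the pooled sign and past the test, unlike the pooled differences. These lists mix unlike holders: that of replicate 2 had 120 members, of which 107 were in it alone, and 1296 conservative peaks, of which 1139 were in both lists. Among peaks with the same holder, chosen after seeing the data, promoters gave −3.21 in replicate 1 alone, −10.6 in replicate 2 alone and −13.2 in neither, and introns 4.79, 8.71 and 7.57. GC-rich summits gave 9.78 in replicate 1 alone and −12.1 in replicate 2 alone. In replicate 2 alone the autosome centre gave 8.43 and small RNA genes 7.57, the reverse of the pooled sign, neither past the test. The coding-exon difference of −12.6 was not seen there (3.70). Against the weaker conservative peaks the difference was 7.33 for coding exons and 10.4 for GC. At an IDR under 0.005 it was −4.87 for promoters, −2.01 for small RNA genes and 4.03 for GC-rich summits (exact p = 0.0554), the last with the pooled sign reversed. With promoters cut to 500 bp it was −2.81 for promoters and −4.04 for intergenic summits (adjusted exact p = 0.0301), and at 50% GC it was −4.42. Ranked lists with no threshold overlapped 1123 and 1012 members. Where values changed, no cause was tested. In all, 207 other values kept their side of the threshold or, for counts, changed little, the summit excess of the motif among them in all 3 alternatives, and the soft-masked share, chosen after seeing the data. Untagged worms were not analysed here and read depth is unknown, so neither background enrichment nor the depth behind the replicates' difference could be measured. No paired analysis was possible because there was 1 group.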
